A study of Homo sapiens with 36 samples.

Results

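The genes described here carry out protein folding in the endoplasmic reticulum (ER) or respond when that folding is overloaded. They were chosen by name, as a fixed list of 32 genes for chaperones, disulfide enzymes, ER-associated degradation, stress sensors and transcription factors, targets of ATF4 and the protein channel of the ER membrane. Of these, 30 were measured, by 50 probe sets that name the gene alone, among 11963 genes measured that way. DNAJB11 and SYVN1 were not analysed here. The list was chosen with earlier results of these data known, so the counts of members below describe it and are no independent test. The cells were human U2OS osteosarcoma cells, a line from a bone tumour, that stably carry ER-HA-E2F1, in which the transcription factor E2F1 is joined to a hormone-binding part of the estrogen receptor. In that name "ER" is the receptor and not the organelle.

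All 36 arrays came from this 1 line, and all cells received an siRNA and were then starved of serum for 24 h. The control arm had the Dharmacon control siRNA or the Sigma-Aldrich control siRNA, and the NFYB arm had the Ambion NFYB siRNA or the Dharmacon NFYB siRNA. NFYB is a subunit of NF-Y, a factor that binds the sequence CCAAT. Each siRNA was followed at 0, 4 and 8 h of 80 nM 4-hydroxytamoxifen (OHT), which moves the E2F1 fusion to the nucleus, with 3 arrays per siRNA and time that the labels call biological replicates. The OHT times had no cells lacking the fusion beside them, so effects of E2F1, of OHT itself and of further starvation cannot be told apart. Signal is the MAS5 brightness of a probe set on a linear scale, a change is a difference of mean log2 signals, and a probe set was called where limma's adjusted p was under 0.05 over 22215 probe sets.

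Proteins that enter the secretory route fold in the ER with help from chaperones such as HSPA5 (BiP), and enzymes of the protein disulfide isomerase family form and rearrange their disulfide bonds. Proteins that fail to fold are drawn back across the membrane and degraded. Unfolded proteins activate the sensors IRE1 (ERN1), PERK (EIF2AK3) and ATF6, which lead to spliced XBP1, to ATF4 and DDIT3, and to cleaved ATF6. Cleaved ATF6 is known to act with NF-Y at the ER stress element, a CCAAT box followed at a fixed distance by CCACG.

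Promoter sequence was read for 31 of the 32 genes from RefSeq (GRCh38.p14), as 250 bases before and 50 bases after each annotated start. Both strands were searched. The full element, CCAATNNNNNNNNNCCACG, was present in 6 of the 31 (19.4%), against 0.146% of 9563 genes of the array and 0.0769% of all 35116 promoter windows. The shorter element II, ATTGG, 1 base of any kind and CCACG, which holds a CCAAT box on its other strand, was present in 3 of the 31 (9.68%), against 0.146% of the array's genes and 0.0541% of all windows. The array's genes include the members, which are 6 of the 14 with the full element and 3 of the 14 with element II. The list was chosen for ER stress, after which the element is named, so these shares describe the list and test nothing. These elements are printed because they join the binding sequence of NF-Y to that of the stress factors, with the element in capitals and 5 flanking bases on each side.
HSPA5, chr9:125241386-125241414, minus strand: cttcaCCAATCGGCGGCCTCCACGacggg
HSP90B1, chr12:103930211-103930239, plus strand: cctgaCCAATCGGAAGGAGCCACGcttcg
HSP90B1, chr12:103930316-103930344, minus strand: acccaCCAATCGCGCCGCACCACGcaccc
CALR, chr19:12938379-12938407, minus strand: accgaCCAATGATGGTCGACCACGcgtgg
CANX, chr5:179698773-179698801, plus strand: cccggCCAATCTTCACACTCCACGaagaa
PDIA6, chr2:10812848-10812876, minus strand: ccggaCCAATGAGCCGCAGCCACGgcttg
XBP1, chr22:28800598-28800626, minus strand: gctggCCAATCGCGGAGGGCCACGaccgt
HYOU1, chr11:119057375-119057395, plus strand: ctgggATTGGACCACGtcacg
HYOU1, chr11:119057269-119057289, plus strand: tactcATTGGACCACGtccca
HERPUD1, chr16:56932020-56932040, plus strand: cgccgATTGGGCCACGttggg
SDF2L1, chr22:21642109-21642129, minus strand: ttttgATTGGTCCACGcttcc

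A plain CCAAT box, on either strand and counted also within the elements, was present in 22 of the 31 genes (71.0%), against 44.2% of the array's genes and 34.6% of all windows. The composite element of ATF4, searched as TGATGNAA, was found in ASNS and HERPUD1 (6.45%, against 3.43% of the array's genes). The 250 bases before the start are printed for PDIA4 and SEL1L, the members that were lower with each NFYB siRNA at every time, and for DNAJB9, which showed the greatest rise at 8 h of OHT. Capitals mark CCAAT and its complement ATTGG.
PDIA4, chr7:149028491-149028740, minus strand: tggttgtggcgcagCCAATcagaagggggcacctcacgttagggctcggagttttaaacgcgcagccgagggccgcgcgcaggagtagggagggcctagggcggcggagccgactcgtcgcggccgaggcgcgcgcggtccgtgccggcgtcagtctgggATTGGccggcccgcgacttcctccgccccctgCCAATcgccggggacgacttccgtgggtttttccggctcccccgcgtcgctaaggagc
SEL1L, chr14:81533854-81534103, minus strand: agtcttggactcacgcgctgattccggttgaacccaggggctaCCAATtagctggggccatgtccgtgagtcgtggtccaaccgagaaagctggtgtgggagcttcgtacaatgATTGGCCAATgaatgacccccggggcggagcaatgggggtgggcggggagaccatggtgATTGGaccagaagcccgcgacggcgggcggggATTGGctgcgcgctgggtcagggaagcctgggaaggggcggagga
DNAJB9, chr7:108569624-108569873, plus strand: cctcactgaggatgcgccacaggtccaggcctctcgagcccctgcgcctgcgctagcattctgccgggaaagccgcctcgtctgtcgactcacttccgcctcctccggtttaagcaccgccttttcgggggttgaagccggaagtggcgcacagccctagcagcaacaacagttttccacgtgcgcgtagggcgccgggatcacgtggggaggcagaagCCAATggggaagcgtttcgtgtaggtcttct
PDIA4 had 3 such boxes, SEL1L 5 and DNAJB9 1, and neither element was found in these windows.

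**Figure D1:**
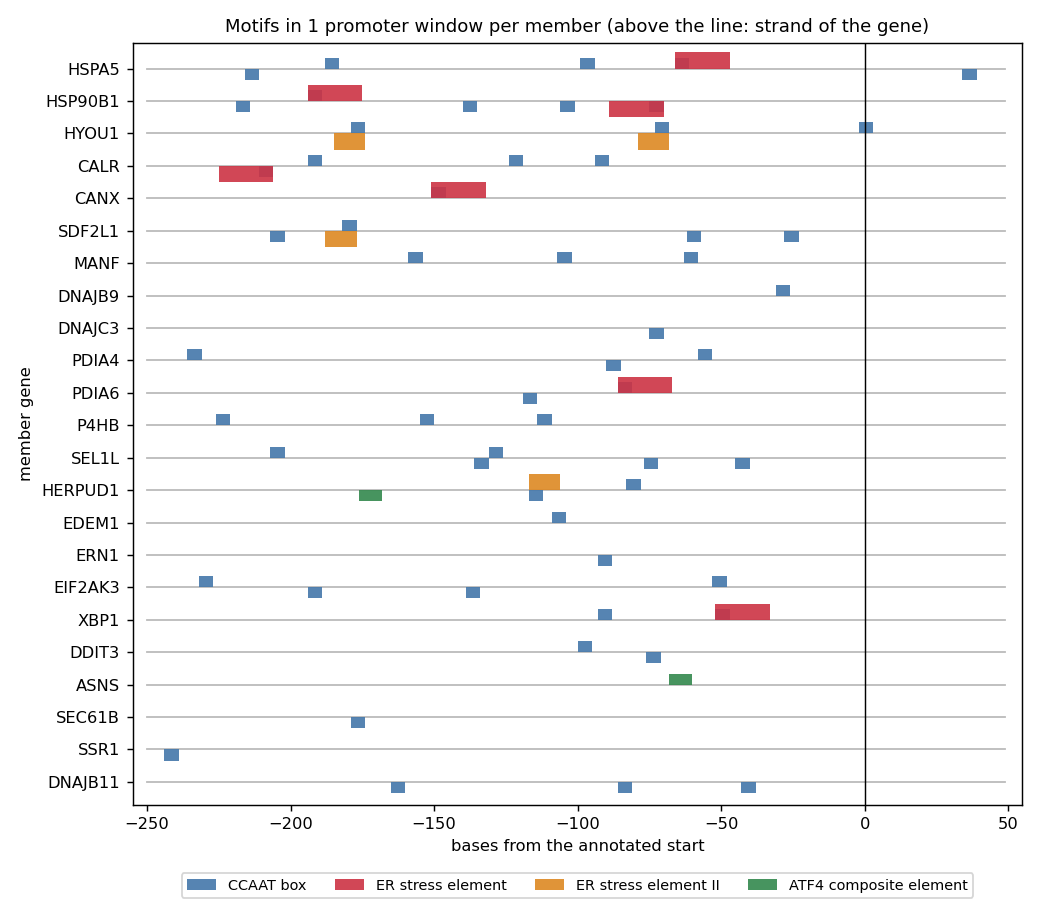
Motifs in 1 promoter window of each member that held any, by distance in bases from the annotated start (x axis, 250 before to 50 after), drawn above the line where they read along the gene and below it where they read on the other strand. The 9 members with an ER stress element of either form also hold further CCAAT boxes in 8 cases, CANX having only the box inside its element, and PDIA4, MANF and SEL1L hold CCAAT boxes without the element.

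The arrays were alike in overall measures. Within a siRNA and time, replicate arrays correlated at r = 0.951 to 0.962 over log2 signals, and array medians lay between 101 and 120. The NFYB probe set checked the labels: its signal was 161 to 203 in the 6 control arrays at 0 h and 53.9 to 81.7 in the 6 NFYB siRNA arrays. The 5 mesenchymal markers summed to between 27600 and 37640 on every array, against 260 to 497 for 4 epithelial, 120 to 280 for 4 leukocyte and 34.3 to 171 for 4 endothelial markers. Single markers departed from these sums: the mesenchymal COL1A2 had a mean signal of 23.5 over all arrays, and the epithelial EPCAM 336.

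NFYB knockdown at 0 h, the comparison of NFYB siRNA with control siRNA before OHT, lowered 7 of the 30 measured members and raised none, where 2% of all probe sets were called lower and 1.58% higher. At 4 h 5 members were lower and none higher (1.45% and 1.48% of probe sets), and at 8 h again 5 and none (2.46% and 2.18%). Read as the members were, from 1 probe set per gene, 2.37%, 1.77% and 2.57% of 11963 genes were lower at 0, 4 and 8 h. In all 9 members were lower at 1 or more times. So were 6.06% of the array's genes with a CCAAT box in their promoter windows and 3.69% of those without. HSPA5, PDIA4 and SEL1L were lower at all 3 times, for which the share of all probe sets is not given here. The median change of the members was -0.20, -0.18 and -0.13 at 0, 4 and 8 h, against 0.00, -0.01 and -0.03 over all probe sets. Without the adjustment, limma's p under 0.05 found 1 member higher at 0 h, SEC61B, and none at 4 or 8 h, and the methods' t-test called none higher after adjustment. All 6 NFYB arrays lay below all 6 control arrays for 2 members at 0 h, 4 at 4 h and 3 at 8 h, where 1.45%, 1.17% and 1.82% of probe sets were so separated.

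**Figure D2:**
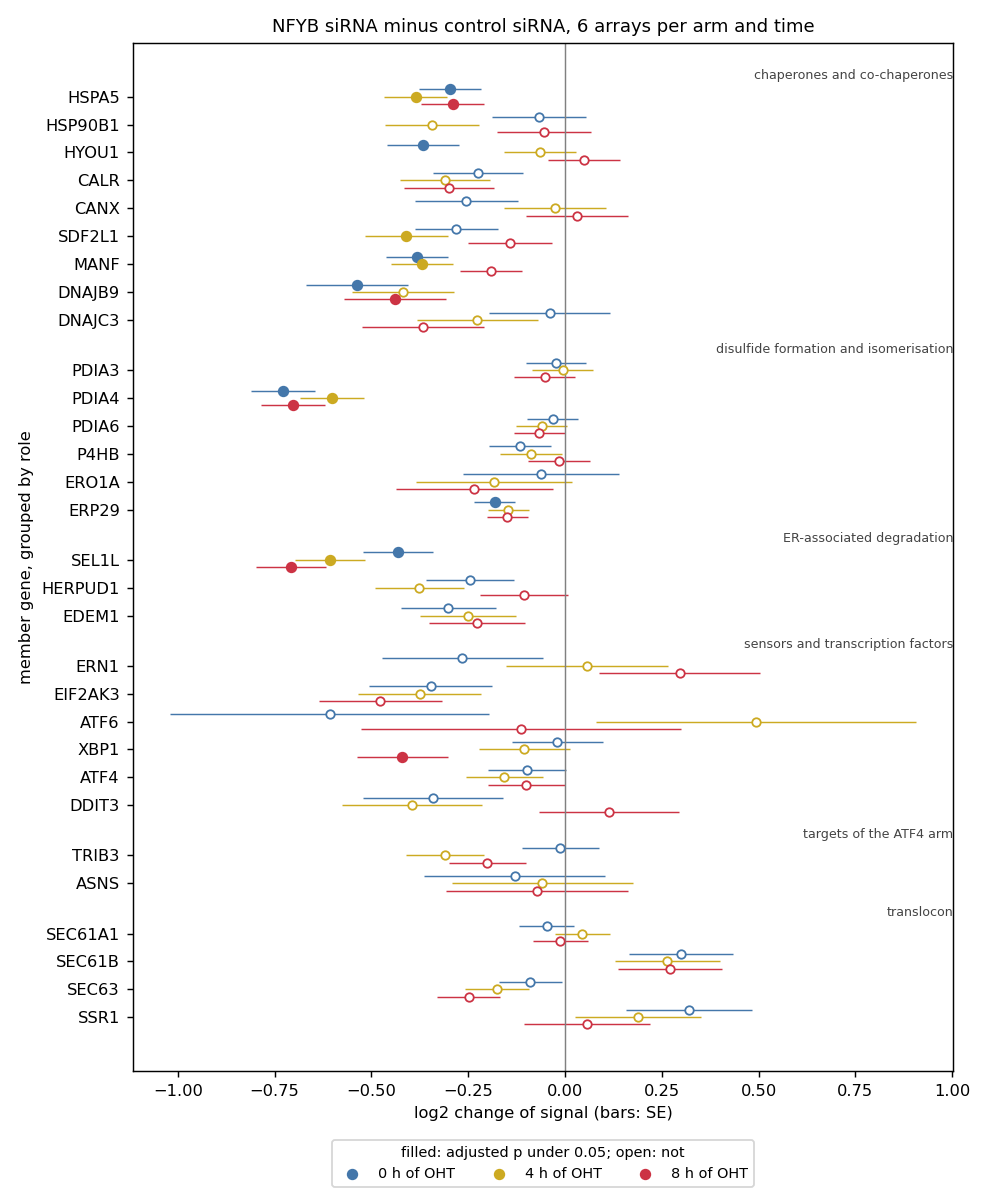
Log2 change of each measured member with NFYB knockdown (x axis, bars 1 SE) at 0, 4 and 8 h of OHT, grouped by role, with filled points called at adjusted p under 0.05. PDIA4 and SEL1L lie between -0.43 and -0.73 at every time, most other members lie left of 0, and no filled point lies right of 0.

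Among the 9 chaperones and co-chaperones, 4 were lower with knockdown at 0 h, 3 at 4 h and 2 at 8 h. HSPA5, the main Hsp70 chaperone of the ER lumen, had a lowest, median and highest signal of 7386, 8367 and 9441 in control arrays at 0 h and of 5871, 6940 and 7437 in NFYB arrays. Of the NFYB arrays 5 were below every control array. Its change was -0.30 (SE 0.081, limma's adjusted p 0.029) at 0 h, -0.39 (adjusted p 0.0038) at 4 h, with all 6 arrays below, and -0.29 (adjusted p 0.029) at 8 h.

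MANF, a secreted survival factor that is retained in the ER with HSPA5, ranged from 2520 through a median of 2909 to 3417 in control arrays at 0 h and from 1978 through 2144 to 2911 in NFYB arrays. At 4 h the ranges were 4261 to 5410 and 3200 to 4106, without overlap. Its change was -0.38 (SE 0.080, adjusted p 0.0028) at 0 h and -0.37 (adjusted p 0.0048) at 4 h. At 8 h it was -0.19 (adjusted p 0.19), not called, though 5 of the 6 NFYB arrays were below all control arrays.

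DNAJB9 (ERdj4), a co-chaperone of HSPA5 that restrains IRE1, had signals of 636 to 958 (median 799) in control arrays and 402 to 699 (median 559) in NFYB arrays at 0 h. Its change was -0.54 (SE 0.13, adjusted p 0.013) at 0 h, -0.42 (adjusted p 0.079) at 4 h and -0.44 (adjusted p 0.045) at 8 h. At 8 h the groups separated, at 2456 to 2772 (median 2594) and 1807 to 2105 (median 1884). Its second probe set had changes of -0.54, -0.36 and -0.53 with greater SE (0.18) and was not called.

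HYOU1 and SDF2L1 were each lower at 1 time. HYOU1, a large Hsp70-like exchange factor of HSPA5, had signals of 1111 to 1246 (median 1199) in control arrays and 759 to 1156 (median 899) in NFYB arrays at 0 h, a change of -0.37 (SE 0.093, adjusted p 0.017). At 4 and 8 h its change was -0.06 and 0.05. SDF2L1, which keeps the co-chaperone DNAJB11 soluble, had signals of 2045 to 2853 (median 2282) and 1559 to 2058 (median 1787) at 4 h, a change of -0.41 (SE 0.11, adjusted p 0.026), with 5 NFYB arrays below all control arrays. The other 4 members of this role, HSP90B1, CALR, CANX and DNAJC3, were not called at any time on their brightest probe sets and had changes between -0.37 and 0.03. A dimmer probe set of the lectin chaperone CALR was called lower at 0 h (-0.45, adjusted p 0.017), and the other one was not called.

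Of the 6 disulfide enzymes, PDIA4 stood lowest. PDIA4 (ERp72) is a disulfide isomerase found in complexes with HSPA5. At 0 h its signal was 785 to 957 (median 937) in control arrays and 483 to 628 (median 536) in NFYB arrays. At 4 h it was 773 to 926 (median 871) and 446 to 681 (median 547), and at 8 h 755 to 848 (median 826) and 461 to 582 (median 487). The groups did not overlap at any time, and its changes were -0.73, -0.60 and -0.70 (SE 0.083, adjusted p 1.2e-07, 7.1e-06 and 3.8e-07). Its second, dimmer probe set was not called, with changes of -0.20, -0.24 and -0.19.

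ERP29, a redox-inactive relative, was lower at 0 h by a small amount, at 3037 to 3525 (median 3408) against 2757 to 3045 (median 2943), a change of -0.18 (SE 0.053, adjusted p 0.048). Its call was kept in 12 of the 36 fits that left out 1 array. PDIA3, PDIA6, P4HB and ERO1A were not called at any time on their brightest probe sets and had changes between -0.23 and -0.01, while a dimmer probe set of P4HB, the founding member of the isomerase family, was lower at 8 h (-0.34, adjusted p 0.012). The oxidase ERO1A had the widest error of these, an SE of 0.20, and its control arrays ranged from 178 to 474 at 0 h.

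SEL1L, the scaffold of the HRD1 ubiquitin ligase that passes misfolded proteins to degradation, was the member of the degradation role that was called. Its signal was 1655 to 1844 (median 1764) in control arrays and 1182 to 1368 (median 1333) in NFYB arrays at 0 h. At 4 h the values were 1277 to 1456 (median 1358) and 743 to 1020 (median 931), and at 8 h 1039 to 1267 (median 1131) and 548 to 903 (median 729). No NFYB array reached a control array at any time, and the changes were -0.43, -0.61 and -0.71 (SE 0.091, adjusted p 0.0029, 2.9e-05 and 1.9e-06). Of the 4 probe sets naming SEL1L alone, the dimmest was lower at all 3 times (-0.53, -0.62 and -0.70). Another was lower at 0 and 8 h (-0.56 and -0.32) but not at 4 h (-0.30, limma's adjusted p 0.073). The values of the last are not given here. HERPUD1, which recruits the ligase, changed by -0.25, -0.38 and -0.11, and the mannosidase-like EDEM1 by -0.30, -0.25 and -0.23, neither of them called. PDIA4, SEL1L and DNAJB9 are also on the study's own list of knockdown genes, which was chosen on these arrays, so their calls are not independent of that choice.

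**Figure D3:**
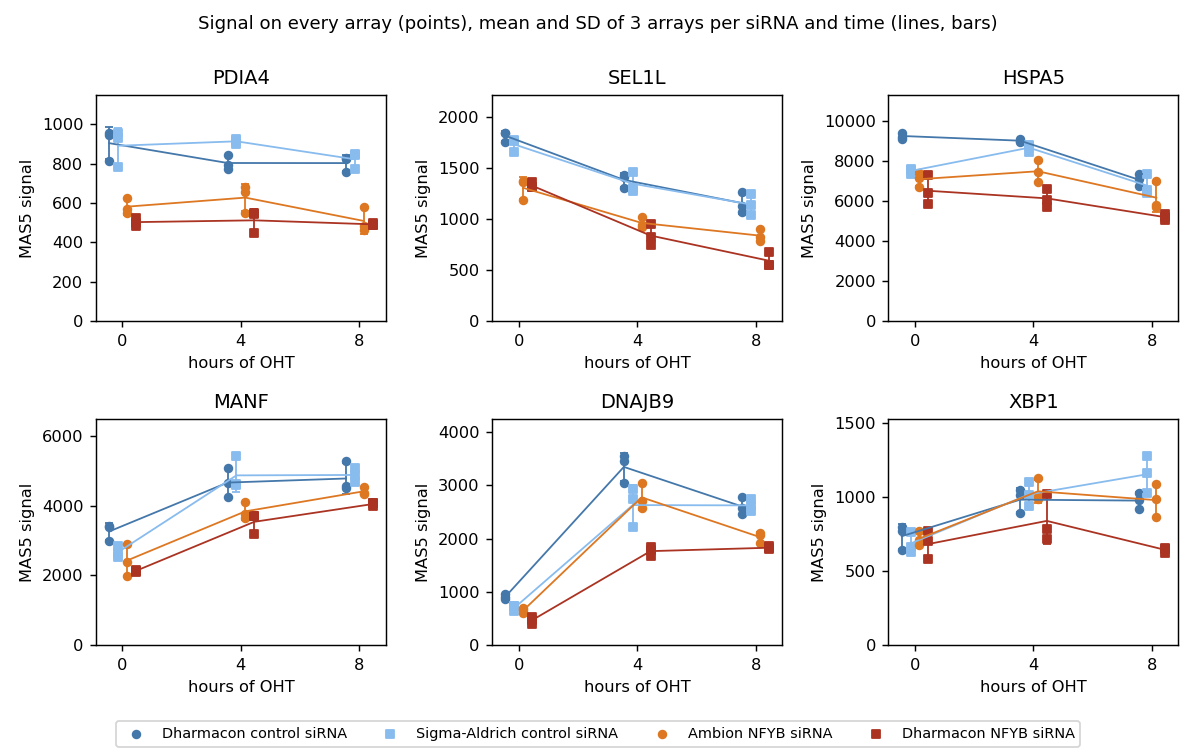
Signal of PDIA4, SEL1L, HSPA5, MANF, DNAJB9 and XBP1 (y axis, MAS5 signal, linear from 0) on each of the 36 arrays by hours of OHT (x axis), with points for arrays and lines and bars for the mean and SD of 3 arrays per siRNA. For PDIA4 and SEL1L both NFYB siRNAs lie below both control siRNAs at all 3 times, and XBP1 at 8 h is low with the Dharmacon NFYB siRNA alone.

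The sensors ERN1, EIF2AK3 and ATF6 were not called with knockdown at any time. EIF2AK3 had changes of -0.35, -0.38 and -0.48, the last with an adjusted p of 0.076. ATF6 was read unevenly: 2 of the 3 Dharmacon control arrays at 4 h held 58.3 and 77.5 and the third 699, and its change of 0.49 at 4 h carried an SE of 0.41. Among the transcription factors XBP1 was lower at 8 h, at 915 to 1272 (median 1027) in control arrays and 624 to 1085 (median 758) in NFYB arrays, a change of -0.42 (SE 0.12, adjusted p 0.029). The array does not part spliced from unspliced XBP1. ATF4 and DDIT3 were not called, with changes between -0.39 and 0.11. Neither the ATF4 targets TRIB3 and ASNS nor the translocon members SEC61A1, SEC61B, SEC63 and SSR1 were called at any time on their brightest probe sets, while a dimmer probe set of SEC63 was lower at 8 h (-0.37, adjusted p 0.020).

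The 2 NFYB siRNAs did not lower the members equally. Set against all control arrays, the Ambion NFYB siRNA alone had 3, 2 and 2 members called lower at 0, 4 and 8 h (1.49%, 1.04% and 1.5% of probe sets). The Dharmacon NFYB siRNA alone had 6, 10 and 8 (4.02%, 3.47% and 4.53%). PDIA4 and SEL1L were the only members lower with each of the 2 siRNAs alone, and they were so at all 3 times. The share of all probe sets lower with each of them is not given here. For PDIA4 the changes were -0.62, -0.45 and -0.68 with Ambion and -0.83, -0.75 and -0.72 with Dharmacon, and for SEL1L -0.44, -0.50 and -0.46 against -0.42, -0.71 and -0.96. XBP1 at 8 h had a change of -0.12 (adjusted p 0.69) with Ambion and -0.72 (adjusted p 9.5e-05) with Dharmacon, where its 3 arrays held 624 to 654. NFYB itself was at 92.2 ± 21.3 with the Dharmacon siRNA at 8 h, against 161 ± 38.2 with Ambion (SD, n = 3). At 4 h it was at 82.7 ± 27.1 against 143 ± 17, and at 0 h at 63.1 ± 6.45 against 70.0 ± 14.5. The part of NFYB level in the differences between these siRNAs was not tested.

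With the siRNA as a random block, which lets arrays of 1 siRNA vary together, 4 members were lower at 0 h, 4 at 4 h and 2 at 8 h (1.32%, 0.968% and 1.37% of probe sets). The calls lost were those of HSPA5 at 0 and 8 h (adjusted p 0.055 and 0.053), HYOU1 (0.058), ERP29 (0.13), SDF2L1 (0.093), DNAJB9 at 8 h (0.056) and XBP1 (0.067). PDIA4 and SEL1L kept their calls under this block at all 3 times. SEL1L lost its call at 0 h against the Sigma-Aldrich control alone (limma's adjusted p 0.051) and at 4 h with its probe sets averaged (0.064).

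Against the Sigma-Aldrich control alone at 0 h, 4 members were lower (3.1% of probe sets), PDIA4, ERP29, ATF4 and ASNS. HSPA5 (-0.15, adjusted p 0.50), MANF (-0.24, adjusted p 0.14), DNAJB9 (-0.35, adjusted p 0.25) and HYOU1 (-0.36, adjusted p 0.087) were not called against it.

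Leaving out 1 array moved 2 of these counts by more than 1.5 times. The 7 members at 0 h became 4, without HSPA5, HYOU1 and ERP29, when the Dharmacon NFYB siRNA array of replicate 2 or of replicate 3 was left out. The 5 members at 8 h became 2, PDIA4 and SEL1L, when the Sigma-Aldrich control array of replicate 1 or any of the 3 Dharmacon NFYB siRNA arrays was left out. They became 3 without the Dharmacon control array of replicate 1 or 2, or the Sigma-Aldrich control array of replicate 2. RNA quality measures are given for the same arrays: at 0 h the 3' to 5' log2 difference of GAPDH was 0.09 to 0.17 in control and -0.10 to 0.13 in NFYB arrays, and that of ACTB was 1.57 to 2.01 and 1.75 to 2.10. The mean log2 signal of the 30 members at 0 h was 10.51 to 10.60 in control arrays and 10.31 to 10.43 in NFYB arrays. The summed signal of 5 interferon genes, which transfected RNA can induce, was 646 to 996 in control and 510 to 638 in NFYB arrays at 0 h. The parts of RNA quality and of the transfection in these results were not tested.

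Members were set beside their promoter class. Of the 9 members with an ER stress element of either form, 4 were lower with knockdown at 1 or more times, HSPA5, HYOU1, SDF2L1 and XBP1. Of the 12 measured members with a CCAAT box and no element 4 were, PDIA4, SEL1L, MANF and DNAJB9, and of the 8 without a CCAAT box 1 was, ERP29. Over the array's genes, 6.06% of the 4227 with a CCAAT box in these windows and 3.69% of the 5336 without were lower at 1 or more times. So were 5 of the 28 with an ER stress element of either form (17.9%). The 28 include the 9 members, and the 5 include the 4 lower members with an element, so this share is not separate from theirs. These shares are a description of the letters in the windows and of the calls.

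Further genes of the ER, of traffic from it and of the ATF4 arm, whose products lie in several compartments, were listed by function. Each was read from its brightest probe set naming it alone. The study's own list of knockdown genes, chosen on these arrays, holds MTHFD2 and other probe sets of TRAM1 and DNAJC10. The brightest probe sets of TRAM1 and DNAJC10 were not called with knockdown. Of 10 further folding genes, the prolyl isomerase FKBP2 was lower at 0 h (-0.54) and 4 h (-0.48), and DNAJC1 (-0.47) and ERP44 (-0.31) at 8 h. None of 9 further degradation genes was called with knockdown at any time. Among 15 genes of translocation and glycosylation STT3A, a catalytic subunit of the oligosaccharyltransferase, was lower at 0 h (-0.28). Of 12 genes of ER to Golgi traffic the coat protein SEC24D was lower at 8 h (-0.62), and of 6 genes of ATF6 processing and related factors the protease MBTPS1, which cleaves ATF6, was lower at 8 h (-0.39). Of 17 genes of the ATF4 arm, MTHFD2, a mitochondrial folate enzyme, was lower at all 3 times (-0.47, -0.41 and -0.49), and PHGDH (-0.56) and WARS1 (-0.97) at 0 h. The controls pooled in these values were themselves apart for this list. With the Sigma-Aldrich control siRNA 12 of the 17 genes were higher than with the Dharmacon control siRNA, as were 15.2% of all probe sets. MTHFD2 was higher by 0.30, PHGDH by 0.65 and WARS1 by 0.57 on the log2 scale. None of these genes was higher with knockdown at any time.

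OHT in control siRNA cells raised 11 members and lowered 3 at 4 h, where 16.1% of all probe sets were called higher and 23.3% lower. The 3 lower at 4 h became 5, with ATF6 and SSR1, without the Dharmacon control array of replicate 3 at 4 h. At 8 h 11 were higher and 5 lower (20.3% and 29.6% of probe sets). Arrays at 8 h lay all above those at 0 h for 8 members and all below for 5, as for 14.1% and 19.6% of probe sets. The median change of the members was 0.13 at 4 h and -0.04 at 8 h, against -0.11 and -0.10 over all probe sets. Over the 11963 genes it was -0.14 and -0.16.

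DNAJB9 rose most among the chaperones. Its control arrays held 636 to 958 (median 799) at 0 h, 2213 to 3539 (median 2988) at 4 h and 2456 to 2772 (median 2594) at 8 h. Every OHT array was above every 0 h array, and its changes were 1.89 and 1.71 (SE 0.13, adjusted p 6.4e-15 and 6.0e-14), or 3.71-fold and 3.28-fold. Its second, dimmer probe set gave greater changes, 2.81 and 2.70 (SE 0.18), so the size of the rise depends on the probe set. MANF rose by 0.69 and 0.71 and DNAJC3, an inhibitor of PERK, by 0.55 and 0.95. HYOU1 rose by 0.24 and 0.30. SDF2L1 was called higher at 4 h alone, by 0.40, and was at -0.04 at 8 h. From 0 to 4 h its mean signal went from 1498 to 2591 with the Sigma-Aldrich control siRNA. With the Dharmacon control siRNA it was 2180 and 2203, and the call was lost with that control alone. HSPA5 was called at 8 h, in the other direction: its arrays held 7386 to 9441 (median 8367) at 0 h and 6406 to 7372 (median 6943) at 8 h, a change of -0.27 (SE 0.081, adjusted p 0.0051). Its mean went from 9269 to 7083 with the Dharmacon and from 7517 to 6776 with the Sigma-Aldrich control siRNA. The call was lost with the Sigma-Aldrich control alone. HSP90B1, CALR and CANX were not called at either time on their brightest probe sets, and the dimmer probe set of CALR was lower at 8 h (-0.40, adjusted p 0.0028).

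DDIT3 (CHOP), a pro-apoptotic factor of the stress response, rose and partly returned. Its control arrays held 153 to 231 (median 211) at 0 h, 639 to 1275 (median 892) at 4 h and 284 to 485 (median 358) at 8 h. All arrays at 8 h lay below all at 4 h, as for HSPA5, SEL1L and 5.06% of probe sets, and above all at 0 h, and the changes from 0 h were 2.13 (4.38-fold, SE 0.18, adjusted p 1.7e-12) and 0.82 (1.76-fold, adjusted p 2.1e-04). TRIB3, a pseudokinase induced by ATF4 and DDIT3, rose by 1.29 and 1.29, from 797 to 1081 (median 951) to 2110 to 2694 (median 2273) at 8 h. ATF4 rose by 0.37 and 0.48, XBP1 by 0.50 and 0.58, and ASNS, an ATF4 target that makes asparagine, had changes of -0.18 and -0.21, not called. The sensors ERN1, EIF2AK3 and ATF6 were not called at 4 or 8 h in control cells.

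In the degradation role SEL1L fell by 0.38 and 0.63 on the log2 scale and EDEM1 by 0.49 and 0.89. EDEM1 arrays held 598 to 789 (median 736) at 0 h and 304 to 474 (median 379) at 8 h, without overlap. HERPUD1 rose by 0.30 at 4 h and was at -0.16 at 8 h, not called. From 0 to 4 h its mean went from 3510 to 3835 with the Dharmacon and from 3235 to 4579 with the Sigma-Aldrich control siRNA. The 4 h call was lost with the Dharmacon control alone. In the disulfide role P4HB rose by 0.22 at 8 h and ERP29 fell by 0.17 and 0.23, while PDIA3, PDIA4, PDIA6 and ERO1A were not called. SEC61A1, the pore of the translocon, rose by 0.35 and 0.75, from 1405 to 1529 (median 1451) at 0 h to 2174 to 2739 (median 2476) at 8 h, with the 8 h arrays also all above the 4 h arrays, as for 4.74% of probe sets and for no other member. SEC63 rose by 0.21 and SSR1 fell by 0.43 at 8 h, and SEC61B was not called.

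**Figure D4:**
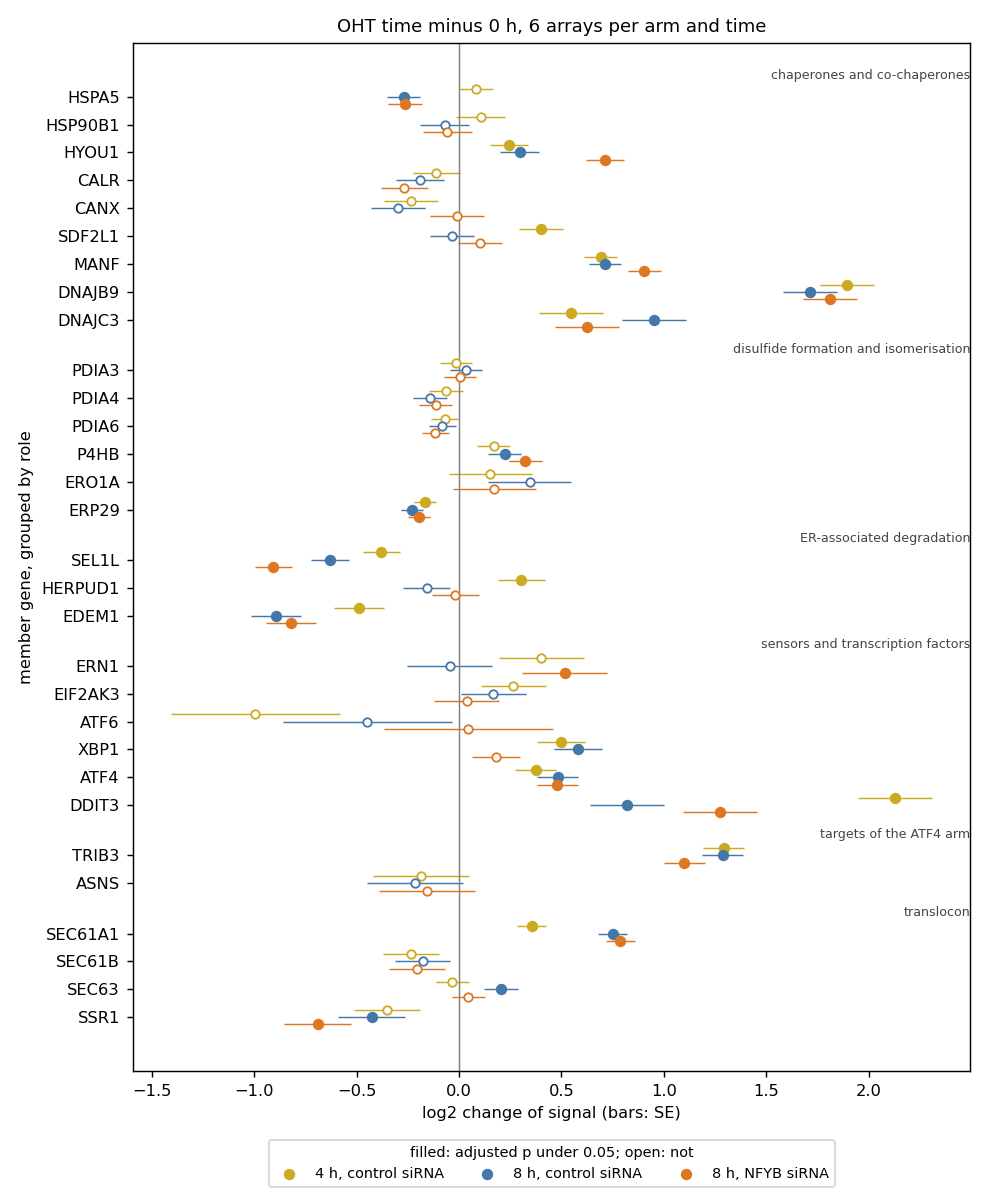
Log2 change of each measured member with OHT from 0 h (x axis, bars 1 SE) at 4 and 8 h in control siRNA cells and at 8 h in NFYB siRNA cells, with filled points called at adjusted p under 0.05. DNAJB9, DDIT3 and TRIB3 lie farthest right, EDEM1 and SEL1L farthest left among filled points, and the 8 h values of the 2 arms differ most for ERN1, ATF6, DDIT3, HYOU1 and XBP1, none of which passed the test of the difference.

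In NFYB siRNA cells 10 members were higher and 5 lower at 8 h than at 0 h (18.5% and 29.4% of probe sets). Called with one sign in both arms were 14 members. The share of all probe sets called with one sign in both arms was not counted. In either direction, 49.9% of probe sets were called in the control and 47.9% in the NFYB arm. DNAJB9 changed by 1.81, MANF by 0.90, DDIT3 by 1.27, TRIB3 by 1.10, SEC61A1 by 0.79, SEL1L by -0.91 and EDEM1 by -0.82. XBP1 (0.18) and SEC63 (0.05) were called in the control arm alone, and ERN1 (0.52) in the NFYB arm alone.

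The difference between the arms' responses, an interaction in the same fit, was called for no member at 8 h (0.203% of probe sets) or at 4 h (0.0135%). Without adjustment limma's p was under 0.05 for HYOU1, SEL1L and XBP1 at 8 h and for HYOU1 and TRIB3 at 4 h, and no other tool was run on it. HYOU1 rose more in NFYB cells at 8 h by 0.42 (95% interval 0.15 to 0.68, p 0.0032, adjusted p 0.35 in limma). The intervals for SEL1L and XBP1 were -0.54 to -0.02 and -0.74 to -0.06, and that of DNAJB9 was -0.28 to 0.47. With the Dharmacon NFYB siRNA alone 3 members, HYOU1, SEL1L and XBP1, passed the test at 8 h (1.06% of probe sets).

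Other lists were set against the 29.6% of probe sets lower and 20.3% higher with OHT in the control arm at 8 h. Of 15 genes of translocation and glycosylation 11 were lower, among them SEC62 (-0.62), STT3A (-0.58), SPCS2 (-0.56) and SSR2 (-0.51), and 1 was higher, the signal peptidase subunit SPCS3 (0.93). Of 12 genes of ER to Golgi traffic 6 were lower, among them the coatomer subunits ARCN1 (-1.19) and COPB1 (-0.73), and the retrieval receptor KDELR3 was higher (0.93). Of 17 genes of the ATF4 arm 7 were higher, among them CHAC1 (2.63), ATF3 (2.57), CEBPG (1.10) and CEBPB (0.88), and 4 were lower, among them SARS1 (-0.80) and NUPR1 (-0.75). Of 10 further folding genes CRELD2 (1.01) and DNAJC1 (0.57) were higher and 2 lower, and of 9 further degradation genes UBE2J1 (1.59), EDEM3 (0.87) and UFD1 (0.16) were higher and 3 lower. The counts of these further folding and degradation lists lie near the shares over all probe sets. Of 6 genes of ATF6 processing and related factors 4 were lower, among them CREB3L2 (-1.41).

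The 2 siRNAs within each arm differed for many members. Averaged over the 3 times, 9 members were lower and 5 higher with the Sigma-Aldrich than with the Dharmacon control siRNA (10.5% and 15.2% of probe sets). ASNS had signals of 1655 ± 97.1 with the Dharmacon and 3948 ± 92.8 with the Sigma-Aldrich control siRNA at 0 h, 1518 ± 72.4 and 3332 ± 122 at 4 h, and 1599 ± 108 and 3043 ± 131 at 8 h (SD, n = 3). The groups were separate at each time, and the difference was 1.11 (SE 0.038, adjusted p 3.1e-20), or 2.15-fold. The NFYB siRNA values lay between the 2 controls at each time, so that the change of ASNS at 0 h was 0.50 (adjusted p 1.6e-04) against the Dharmacon control alone and -0.76 (adjusted p 2.8e-07) against the Sigma-Aldrich control alone.

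Other members that differed between the controls were ERO1A (-0.79), SSR1 (-0.57), SEC61B (0.54), CANX (-0.50), CALR (-0.39), EDEM1 (-0.33), PDIA3 (-0.29) and PDIA6 (-0.18), each as Sigma-Aldrich minus Dharmacon. CANX, a lectin chaperone, held 7357 ± 357 against 5057 ± 195 at 0 h, and ERO1A 415 ± 51.7 against 233 ± 50.1 (SD, n = 3). TRIB3 (0.32), DNAJC3 (0.30) and ATF4 (0.29) were higher with the Sigma-Aldrich control. HSPA5 was lower with it by 0.14 and DNAJB9 by 0.24 on the log2 scale, while PDIA4, SEL1L, MANF, HYOU1 and XBP1 were not called between the controls.

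Between the NFYB siRNAs 14 members were lower and 2 higher with Dharmacon than with Ambion (9.75% and 7.33% of probe sets). The greatest differences were those of DDIT3 (-0.53), DNAJB9 (-0.43), SSR1 (-0.37), EIF2AK3 (-0.34) and XBP1 (-0.34). HSPA5 (-0.22), HYOU1 (-0.22), SEL1L (-0.23) and PDIA4 (-0.18) were also lower with Dharmacon, and HERPUD1 (0.25) and CANX (0.18) were higher.

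**Figure D5:**
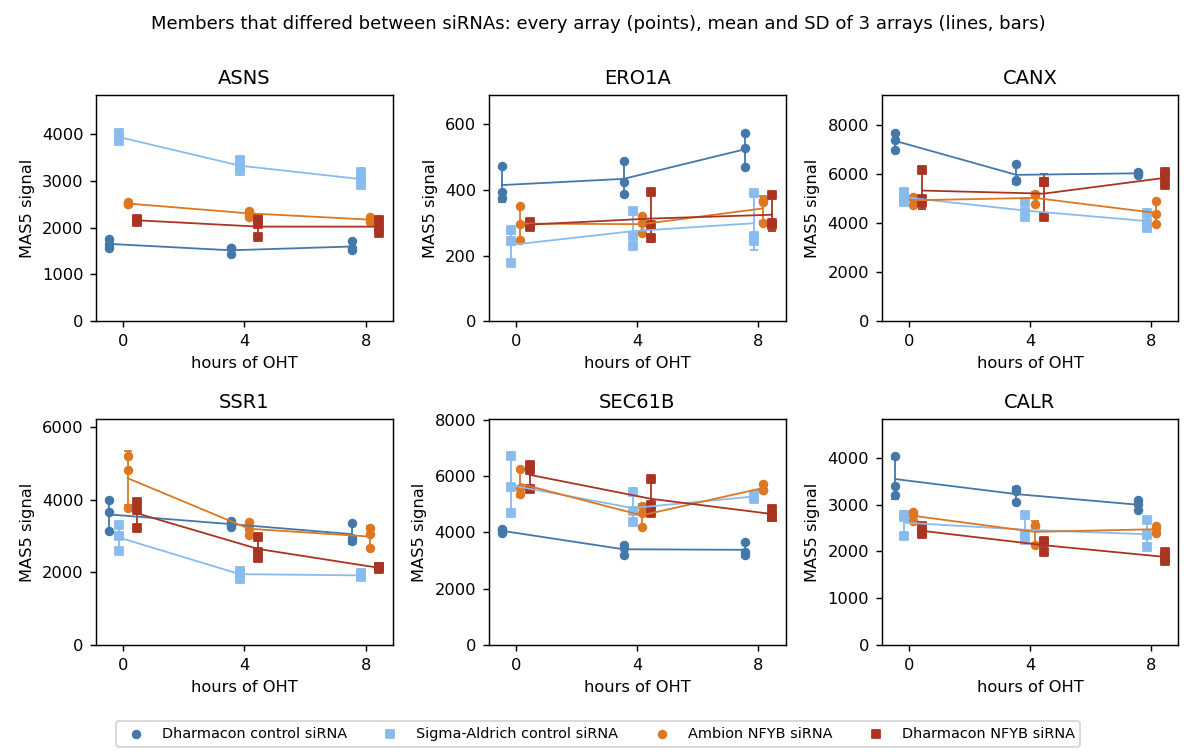
Signal of ASNS, ERO1A, CANX, SSR1, SEC61B and CALR (y axis, MAS5 signal, linear from 0) on each of the 36 arrays by hours of OHT (x axis), with points for arrays and lines and bars for the mean and SD of 3 arrays per siRNA. The means of the 2 control siRNAs lie apart for each of these genes, though single arrays overlap for SSR1 at 0 h, and for ASNS both NFYB siRNAs lie between them at all 3 times.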

How the data were processed

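The authors deposited 1 table of MAS5 intensity signals from Affymetrix human expression arrays, each array scaled to the same mean. The trimmed mean, without the top and bottom 2% of probe sets, was 500 on all arrays. Affymetrix Expression Console is named in the submitters' processing notes, with no version. RNA for the 36 arrays was amplified and labelled before hybridisation. Probe sets were named from the platform's annotation, 62 control probe sets were left out, and 22215 were tested. Each member, and each gene of the other lists, was read from its brightest probe set naming it alone.

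The log2 of the signal, with no offset, was fitted with limma 3.58.1 in R 4.3.3 on 6 groups of 6 arrays, arm by time, with a trended prior, two-sided tests and Benjamini-Hochberg adjustment over all probe sets. Comparisons between siRNAs of an arm used 12 groups. Members and lists were chosen with earlier results of these data known. Named genes are the members, and genes of the other lists that were called. A MAS5 signal gives no count of molecules, and the number of arrays limits the precision. Alternatives covered the offset, normalization, filtering, probe set choice, blocks, siRNAs, single arrays and the methods' t-test. The labels call the replicates biological, of 1 cell line, and the titles do not say whether they were separate cultures.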

Additional observations from a re-analysis of the deposited data

Results flagged for a closer look

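Among 180 sets of 6 arrays (30 members, 6 groups of arm and time), 10 had 1 array far from the other 5, judged by the gap to its nearest neighbour as a share of the whole range. Chance marks about 1 in 20 such sets. The share was 0.741 for CANX on the Dharmacon NFYB siRNA array of replicate 1 at 0 h, with a signal of 6190 against 4750 to 5080 on the others. For PDIA4 it was 0.65 on the Ambion NFYB siRNA array of replicate 1 at 8 h (582 against 461 to 500), which stayed below the control arrays, and for SEL1L 0.694 on the Ambion NFYB siRNA array of replicate 2 at 0 h (1180 against 1310 to 1370). For P4HB it was 0.705 (5940 against 7780 to 8700) and for ATF4 0.696 (6860 against 8690 to 9630), both on the Dharmacon NFYB siRNA array of replicate 2 at 4 h. For ATF6 it was 0.627 on the Dharmacon NFYB siRNA array of replicate 3 at 4 h (208 against 410 to 613). For ATF4 it was also 0.64 on the Dharmacon control array of replicate 2 at 8 h (9810 against 10400 to 10800), and for DDIT3 0.64 on that siRNA's array of replicate 2 at 0 h (153 against 199 to 231). On Sigma-Aldrich control arrays at 8 h it was 0.679 for ERN1 in replicate 3 (80.1 against 41.9 to 51.6) and 0.672 for TRIB3 in replicate 1 (2690 against 2110 to 2290).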

How the results depend on the processing

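The knockdown counts moved with the siRNAs, the arrays and the test used. Where no share of all probe sets under a setting is given above or here, its counts are set against no background. They then describe the setting and not the members. Members lower at 0, 4 and 8 h (7, 5 and 5) were 12, 13 and 11 with siRNA by time as 12 groups, and then 2, 1 and 1 were higher. Fitting only the groups compared gave 2 at 0 h and 3 at 8 h. The siRNA as a random block gave 4 at 0 h and 2 at 8 h, and 5 lower with OHT at 4 h in control cells. The Ambion NFYB siRNA alone gave 3, 2 and 2, and 3 lower with OHT at 8 h in NFYB cells. The Dharmacon NFYB siRNA alone gave 10 at 4 h, 8 at 8 h and 3 for the difference of 8 h responses. The Dharmacon control alone gave 8 lower at 4 h, with 2, 3 and 2 higher at the 3 times, and 7 higher with OHT at 4 h and 7 at 8 h. The Sigma-Aldrich control alone gave 4 at 0 h and 9 at 4 h, with 1 higher at 0 h and 1 at 4 h. Its fit, on fewer arrays, also gave 8 lower with OHT at 8 h in NFYB cells. The methods' t-test, after Benjamini-Hochberg adjustment, gave 2, 2 and 3 lower with knockdown, and its unequal-variance form on log2 signals gave 2, 2 and 2, without PDIA4 at 4 h (adjusted p 0.055) and SEL1L at 8 h (adjusted p 0.058). At the methods' own threshold (p under 0.001 with a ratio over 1.3 or under 0.7) the lower members were 1, 2 and 2. Over all probe sets 116, 84 and 101 were lower at that threshold. With OHT, the 12 groups gave 8 lower at 4 h and 9 at 8 h in control cells and 9 in NFYB cells, and averaging the probe sets of each gene gave 5 at 4 h. The cause of these shifts was not tested.

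Leaving out 1 array, or all arrays of 1 replicate number, gave 1 to 7 members lower with knockdown at 0 h, 2 to 7 at 4 h and 2 to 7 at 8 h, and 0 higher. It gave 2 to 5 lower and 7 to 12 higher with OHT at 4 h, 3 to 6 and 9 to 12 at 8 h, 4 to 6 and 9 to 10 at 8 h in NFYB cells, 0 for both differences, 12 to 15 between the controls and 9 to 18 between the NFYB siRNAs. Without replicate number 1 or 3, SEL1L lost its call at 0 h and PDIA4 alone remained. Replicate numbers did not pair the arrays: over 198 same-numbered pairs the deviations from the group means correlated at -0.0558 to 0.0601. With a replicate block 6 members were lower at 0 h (ERP29 lost), 5 at 4 h and 4 at 8 h (DNAJB9 lost). The offset of 16, quantile normalization, the filter on dim probe sets and the fit without a variance trend left every count within 1.5 times its value, and no change of a member called with 6 groups turned its sign under any alternative. ASNS at 0 h, not called there, was called higher against the Dharmacon control alone and lower against the Sigma-Aldrich control alone. Changes of members below a signal of about 100, as for ERN1, are the least certain.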
